A study of Mus musculus with 18 samples.

Results

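The comparison described here sets macrophages taken 30 min after LPS plus IL-10 against macrophages taken 20 min after the same treatment, and asks which genes began or went on rising in that interval and which stopped. Its members are 6 of the 18 arrays of the series, the 3 labelled LPS plus IL-10, 30 min and the 3 labelled LPS plus IL-10, 20 min, paired by replicate number, with every probe set read as log2(signal + 16). The cells were bone marrow derived macrophages of IL-10-/- mice, grown for 7 days with CSF-1 from L cell conditioned medium and treated in medium without CSF-1. LPS was given at 100 ng/ml and IL-10 at 10 ng/ml. Each replicate number was an independent experiment on mice matched for age and sex, and the experiments were run one after another. They are called experiments 1, 2 and 3 here. Further arrays of the same 3 experiments, used as references for the interval, were LPS plus IL-10 at 10 min and LPS alone at 10, 20 and 30 min. Every group carried both LPS and the Il10 deletion, and untreated cells and cells with a working Il10 gene were not analysed here. By their genotype the cells lack IL-10 of their own, so the IL-10 named here is the added cytokine.

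LPS binds Toll-like receptor 4 on macrophages and activates NF-kB and the MAP kinases, which within minutes switch on immediate early genes whose short-lived mRNAs encode cytokines, chemokines, transcription factors and inhibitors of the same pathways. IL-10 binds its own receptor and activates the Janus kinases and the transcription factor STAT3, whose targets include Socs3, an inhibitor of cytokine receptor signalling, and repressors that lower the transcription of inflammatory genes. Etv3, an ETS-family repressor, and Sbno2, a co-repressor, are known as 2 such STAT3 targets, and the series title is about a repressor and a co-repressor of this kind, so their presence among the risers is not independent evidence.

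Of the 11 genes that passed the test in the interval from 20 to 30 min or in the one before it, 9 had a promoter in the RefSeq table, build GRCm38.p6, from 250 bases before to 50 bases after the start of transcription. Il10 and Tnfsf9 had none. Shown 5' to 3' are promoters of 2 genes called before 20 min (Socs3 and Cxcl2), of Etv3, called in both intervals, and of Il1b, called after 20 min, since the timing of their rise is what the results below compare. Capitals mark matches to the motifs searched.
Socs3 promoter, chr11:117969317-117969616, - strand: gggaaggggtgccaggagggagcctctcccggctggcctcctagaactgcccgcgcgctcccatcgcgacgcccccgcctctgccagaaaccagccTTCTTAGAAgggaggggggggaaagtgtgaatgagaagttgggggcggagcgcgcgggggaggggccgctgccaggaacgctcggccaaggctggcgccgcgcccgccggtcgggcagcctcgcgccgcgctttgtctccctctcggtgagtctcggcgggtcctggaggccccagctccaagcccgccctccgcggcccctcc
Cxcl2 promoter, chr5:90903649-90903948, + strand: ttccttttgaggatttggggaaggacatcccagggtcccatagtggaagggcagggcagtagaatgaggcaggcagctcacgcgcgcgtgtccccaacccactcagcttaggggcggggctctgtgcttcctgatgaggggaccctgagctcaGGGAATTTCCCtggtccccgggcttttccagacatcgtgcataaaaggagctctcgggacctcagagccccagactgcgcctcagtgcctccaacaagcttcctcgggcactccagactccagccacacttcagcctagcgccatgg
Etv3 promoter, chr3:87525328-87525627, + strand: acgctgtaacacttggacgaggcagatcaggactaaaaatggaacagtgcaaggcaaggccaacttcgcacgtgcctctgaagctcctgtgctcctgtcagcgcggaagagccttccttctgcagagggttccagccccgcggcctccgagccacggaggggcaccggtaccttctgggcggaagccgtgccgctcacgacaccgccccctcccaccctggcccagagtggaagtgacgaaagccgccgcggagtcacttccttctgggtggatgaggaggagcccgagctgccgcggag
Il1b promoter, chr2:129371090-129371389, - strand: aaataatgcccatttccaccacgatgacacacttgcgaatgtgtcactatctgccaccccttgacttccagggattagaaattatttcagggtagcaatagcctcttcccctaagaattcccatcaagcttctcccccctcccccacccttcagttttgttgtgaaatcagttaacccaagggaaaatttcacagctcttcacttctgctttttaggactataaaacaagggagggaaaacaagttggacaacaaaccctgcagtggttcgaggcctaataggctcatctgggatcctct
The capitals in Socs3 are a match to the STAT motif TTCNNNGAA, 154 to 146 bases before the start, and those in Cxcl2 are a pair of overlapping matches to the kB motif, 97 to 87 bases before the start. Both strands were searched, also for the AP-1 motif TGANTCA, the CRE motif TGACGTCA and the CArG motif. The Etv3 and Il1b windows held no match to any of these letters. The STAT motif was in 8.3% of 32851 promoters of the same length, the AP-1 motif in 7.81%, the kB motif in 4.51%, the CRE motif in 1.79% and the CArG motif in 1.63%. Among the other risers, Zfp36 had a STAT and a CArG match, Dusp1 a CRE match and Ier3 a kB match. Sbno2 had a STAT match at 2 of its 3 starts and a kB match at the other one, and Pde4b had a STAT and a kB match together at 1 of its 4 starts. A match describes letters only and was not tested as a binding site.

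All arrays had a trimmed mean signal of 500, set by the authors' scaling, and precision is limited by having 3 arrays in each group. The lower quartile of signal was 21.9 to 31.1 on the 6 arrays compared, highest on the 20 min array of experiment 3, and the 3' to 5' signal ratio was 0.775 to 1.02 for Gapdh and 1.12 to 1.33 for Actb. The LPS alone arrays at 20 min of experiments 2 and 3 stood apart, with a lower quartile of up to 38.7 and a median rank correlation with the other arrays as low as 0.868. They enter the shared estimate of spread, and calls that change without them are given beside the results. Il10 gave a signal on all 18 arrays, and since no array of wild-type cells was used here and where its probes lie relative to the deletion is not stated in the labels, this checks nothing about the genotype. Arrays measure bulk RNA, in which fewer cells making an mRNA and less of it per cell cannot be told apart.

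Between 20 and 30 min of LPS plus IL-10, 5 genes rose: the cytokine genes Il1b, Tnfsf9 and Il10, the cAMP phosphodiesterase gene Pde4b and the repressor gene Etv3. Their log2 fold changes lay between 0.80 and 1.99, and each was positive in all 3 experiments. They were 5 of the 27062 probe sets tested, or 0.0185% (limma with the experiment as a block, Benjamini-Hochberg adjusted p under 0.05 over all probe sets). No probe set fell at that threshold (0%). At an unadjusted p under 0.05, 890 probe sets were higher (3.29%) and 1050 lower (3.88%), and the median log2 fold change over all probe sets was -0.02.

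Il1b encodes the pro-inflammatory cytokine IL-1 beta. Its signal at 30 min was 474, 1119 and 1140.1 in experiments 1, 2 and 3, against 49.5, 264.9 and 541.6 at 20 min. Every experiment was higher at 30 min, but the groups overlapped because the 20 min array of experiment 3 was brighter than the 30 min array of experiment 1. The log2 fold change was 1.99 (SE 0.31, 95% interval 1.33 to 2.65, limma adjusted p = 0.0339). The 10 min arrays had stood at 103.5, 127.1 and 420.6, and the earlier interval, 20 against 10 min, gave a log2 fold change of 0.15 (limma adjusted p = 0.971).

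Tnfsf9 encodes the ligand of the T cell costimulatory receptor 4-1BB. Its signal was 2187, 1742 and 1036 at 30 min, against 723.4, 453.3 and 430.0 at 20 min, so the groups did not overlap. It rose by 1.57 on the log2 scale (SE 0.24, 95% interval 1.07 to 2.08, limma adjusted p = 0.0254). At 10 min the signal was 502.4, 380.7 and 343.3, and the step up to 20 min was 0.36 (limma adjusted p = 0.929).

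Il10 itself, whose transcript is read in cells that carry the deletion, had a signal of 2857, 2500.3 and 3209 at 30 min and of 898.8, 1145 and 1895 at 20 min. The lowest 30 min array was above the highest 20 min array. The log2 fold change was 1.17 (SE 0.16, 95% interval 0.83 to 1.51, limma adjusted p = 0.00926), and the steps of experiments 1, 2 and 3 were 1.65, 1.12 and 0.75. The 10 min signals were 928.3, 769.4 and 1073, and the earlier step was 0.44 (limma adjusted p = 0.826).

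Pde4b encodes a phosphodiesterase that breaks down the second messenger cAMP. On its brightest of 4 probe sets the signal was 1493, 1799 and 1902 at 30 min, against 691.9, 691.0 and 1095 at 20 min, without overlap. The log2 fold change was 1.08 (SE 0.14, 95% interval 0.78 to 1.38, limma adjusted p = 0.00764). Its 10 min arrays read 387.0, 408.5 and 612.4, a step to 20 min of 0.79 that did not pass (limma adjusted p = 0.081) but did without the 2 LPS alone arrays that stood apart (limma adjusted p = 0.0408). The other 3 probe sets gave 0.28, 0.35 and 0.69 in the later interval, and none of them passed.

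Etv3 rose on the second-brightest of its 4 probe sets, with signals of 2184, 1836 and 1301 at 30 min, against 1118, 1108 and 775.3 at 20 min. Here too the groups did not overlap, and the steps of the 3 experiments, 0.96, 0.72 and 0.73, lay close together. The log2 fold change was 0.80 (SE 0.10, 95% interval 0.59 to 1.02, limma adjusted p = 0.00764). At 10 min this probe set had read 1023, 1100.0 and 677.1, and the earlier step was 0.11 (limma adjusted p = 0.937).

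The probe sets of Etv3 did not move together. The third-brightest read 552.7, 693.6 and 489.6 at 10 min, 1535, 1363 and 1293 at 20 min, and 2346, 2597 and 2049 at 30 min. Its later step of 0.73 did not pass (limma adjusted p = 0.188), while it passed in the earlier interval with a log2 fold change of 1.26 (SE 0.15, limma adjusted p = 0.00116). The brightest changed by 0.30 and the dimmest by -0.13 in the later interval, neither past the threshold. Which transcripts each probe set reads was not tested.

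**Figure D1:**
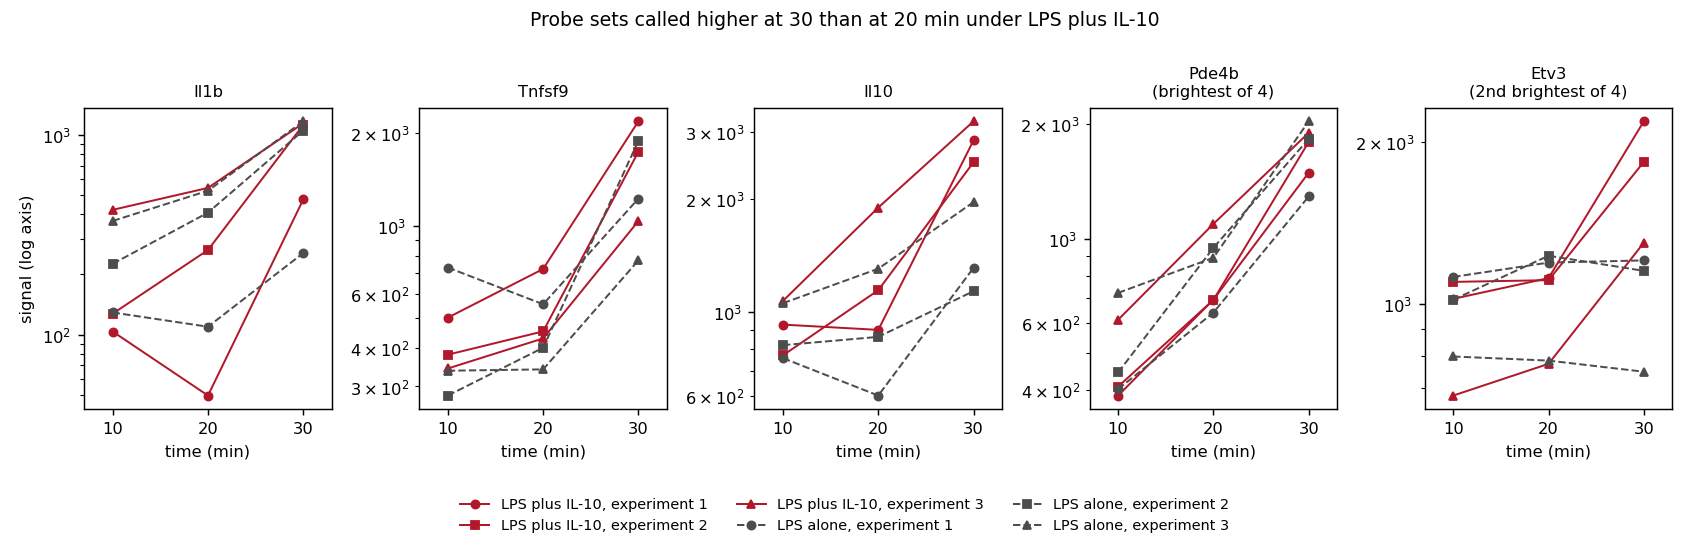
Signal on a log axis against minutes of treatment for the 5 genes that rose between 20 and 30 min of LPS plus IL-10, with 1 point per array, in LPS plus IL-10 and in LPS alone. Tnfsf9, Il10, Pde4b and Etv3 at 30 min of LPS plus IL-10 lie above all 3 arrays at 20 min, and Il1b overlaps.

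The 5 calls depended on the arrays and on the block. Without experiment 1 or without experiment 2 no probe set passed, without experiment 3 there were 11, of which 4 belonged to the 5, and without the experiment as a block none passed and 516 had an unadjusted p under 0.05. Without the 2 LPS alone arrays that stood apart, Etv3, Il10 and Pde4b passed, while Tnfsf9 and Il1b were both at a limma adjusted p of 0.0546. Il1b passed in 5 of 13 alternative settings, the fewest of the 5 genes, and Etv3 in 9, the most, with log2 fold changes of 1.53 to 2.46 for Il1b and of 0.73 to 0.85 for Etv3 over those settings.

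The 9 probe sets that had risen before 20 min gave higher values again at 30 min, but none of those probe sets passed the test in the later interval. Between 10 and 20 min of LPS plus IL-10, 9 probe sets of 7 genes rose, or 0.0333% of those tested, and none fell (0%; at an unadjusted p under 0.05, 2.88% were higher and 2.56%, or 693, lower). They read Socs3 on 3 probe sets, Sbno2, Etv3, the chemokine gene Cxcl2, and the feedback genes Dusp1, Zfp36 and Ier3. In the later interval all 9 were positive in all 3 experiments, with log2 fold changes of 0.64 to 1.33 and 95% intervals above 0, and in 8 the 30 min arrays lay above the 20 min arrays without overlap, as they did in 1.8% of all probe sets. Their adjusted p was 0.0797 to 0.431. Both intervals use the same 20 min arrays, so a chance deviation of those arrays would enter the steps with opposite signs.

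Socs3, the inhibitor of cytokine receptor signalling, had the largest early step of the 9. Its brightest probe set read 409.8, 569.9 and 642.6 at 10 min, 4597, 4858 and 5930.4 at 20 min, and 10529.9, 11388 and 10701 at 30 min. The log2 fold change was 1.09 in the later interval (SE 0.24, 95% interval 0.58 to 1.60, limma adjusted p = 0.224) and 3.22 in the earlier one (SE 0.24, limma adjusted p = 1.9e-06). The other 2 probe sets gave later steps of 0.96 and 1.33 after earlier ones of 3.03 and 2.95. The 2 brightest carry a suffix that the array maker gives to probe sets that may also bind other transcripts.

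Sbno2, the co-repressor gene, read 398.7, 508.5 and 473.3 at 10 min, 1222, 1196 and 1735 at 20 min, and 1994, 2480.0 and 1977 at 30 min on its brightest of 4 probe sets. The step was 0.64 in the later interval (95% interval 0.29 to 1.00, limma adjusted p = 0.431) and 1.54 in the earlier one (limma adjusted p = 0.000258). The later step was smallest in experiment 3, at 0.19, and was 0.70 and 1.04 in experiments 1 and 2. The next 2 probe sets by brightness gave 0.84 and 0.72, with 30 min arrays above all 20 min arrays, and the dimmest gave -0.22, with experiments on both sides of 0.

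Cxcl2, the gene of a neutrophil chemokine, read 5070.0, 2836 and 2552 at 10 min, 9113, 9410 and 6646 at 20 min, and 18800, 20602 and 12154 at 30 min. The later step was 1.01, with a limma adjusted p of 0.0954, and the earlier one 1.31, with the lowest signals of each time in experiment 3.

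Dusp1, a phosphatase that inactivates MAP kinases, read 14222, 16807 and 11468 at 30 min, against 8911, 10073 and 7151 at 20 min, a later step of 0.70 (95% interval 0.39 to 1.00) after an earlier one of 1.01. Ier3, an immediate early gene that modulates cell survival, read 10550.3, 12684 and 12931 at 30 min, against 6585, 6210.2 and 6474 at 20 min, a later step of 0.90 after one of 1.04. Zfp36 encodes an mRNA decay factor that shortens the life of cytokine mRNAs, and it read 11203, 10848 and 7158 at 30 min, against 6103, 8027 and 3983 at 20 min, a later step of 0.72 after one of 0.82. Zfp36 was the member of the 9 whose groups overlapped. It had the smallest adjusted p of the 9 in the later interval, 0.0797.

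**Figure D2:**
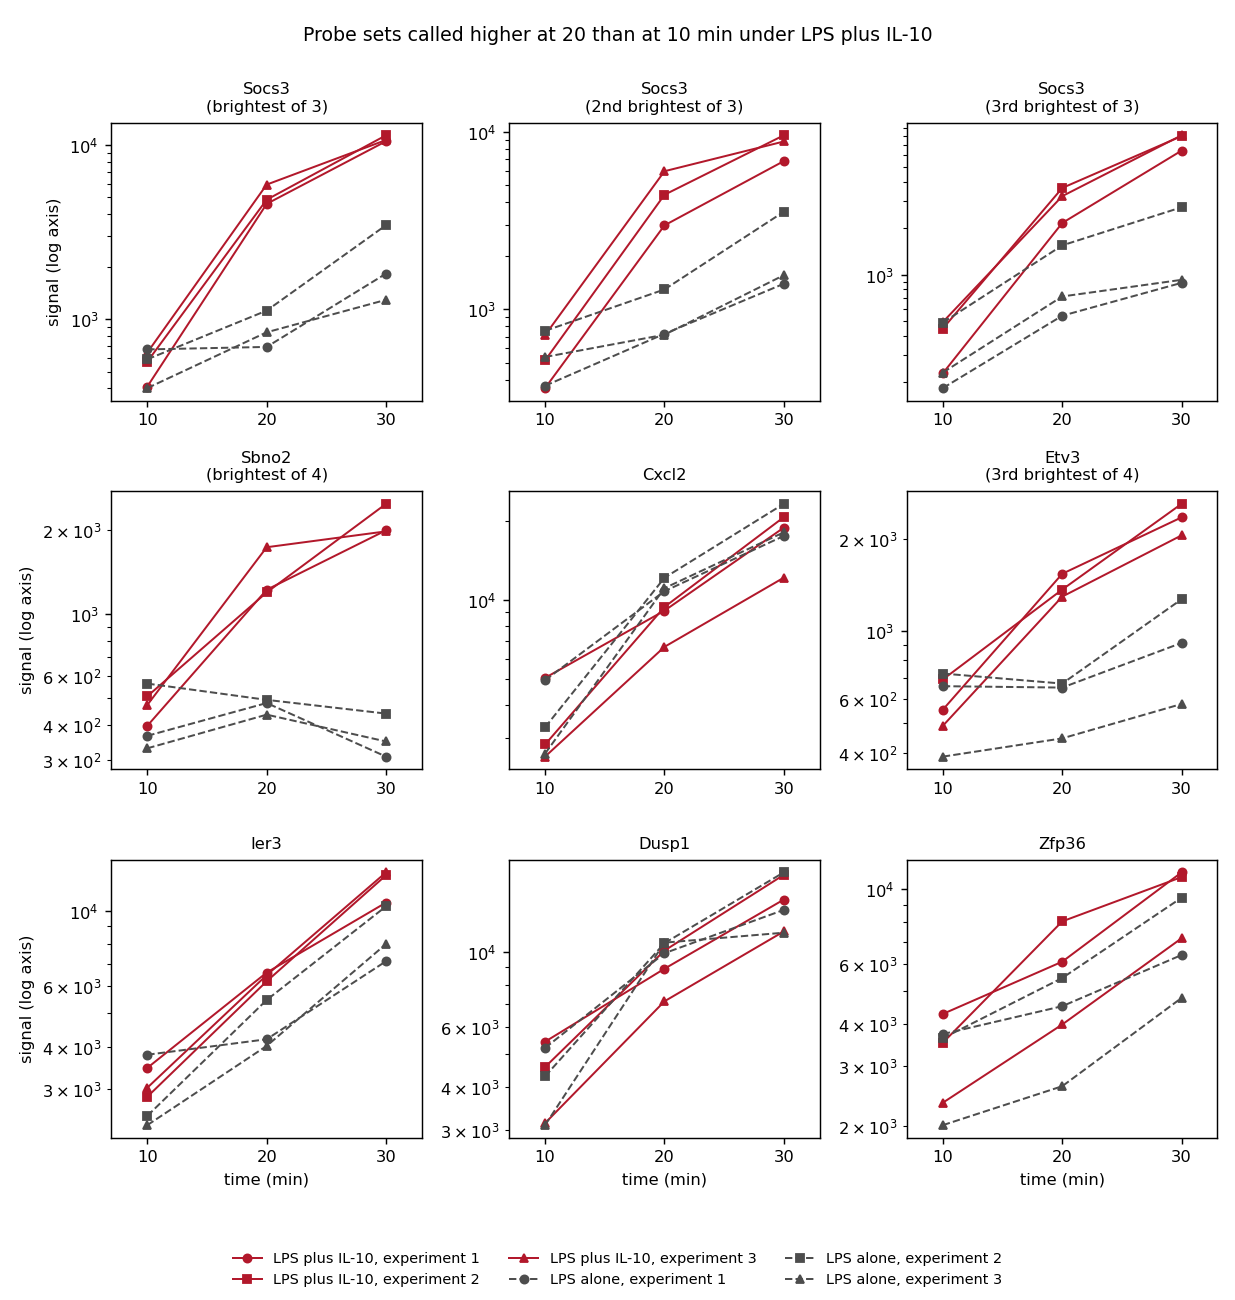
Signal on a log axis against minutes of treatment for the 7 genes that rose between 10 and 20 min of LPS plus IL-10, with 1 point per array, in LPS plus IL-10 and in LPS alone. The lines of LPS plus IL-10 go on upward after 20 min, with later steps of 0.64 to 1.33 on the log2 scale over the 9 probe sets that passed before 20 min.

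Whether the later step differed from the earlier one was tested as a contrast of its own, the step from 20 to 30 min minus the step from 10 to 20 min. No probe set passed in either direction (0% each way), 1747 had an unadjusted p under 0.05 (3.3% positive and 3.15% negative), and the smallest adjusted p was 0.755. For Socs3 the later step was smaller by an estimated -2.13 (95% interval -3.01 to -1.25) and for Sbno2 by -0.90 (-1.51 to -0.29), on their brightest probe sets. For Il1b the later step was larger by 1.84 (0.69 to 2.98), for Tnfsf9 by 1.22 (0.35 to 2.09) and for Il10 by 0.73 (0.14 to 1.32). The Etv3 probe set called after 20 min gave 0.69 (0.33 to 1.06), and the one called before it -0.53 (-1.09 to 0.03). Intervals also held 0 for Pde4b (0.29), Cxcl2 (-0.30), Dusp1 (-0.31), Ier3 (-0.14) and Zfp36 (-0.10). The next 2 Sbno2 probe sets by brightness gave 0.03 and -0.31. The genes were named for passing a step that enters this contrast. The intervals are for 1 probe set at a time, and after adjustment over all probe sets none of the differences passed. Fitted on only the 9 arrays of LPS plus IL-10, the contrast called 2 probe sets of Socs3, at a smallest limma adjusted p of 0.0108. By the calls alone, 5 probe sets passed only after 20 min, 9 only before it, and 0 in both. Without the 2 LPS alone arrays that stood apart, Pde4b passed in both intervals on the same probe set. Etv3 was the gene called in both intervals, on different probe sets.

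**Figure D3:**
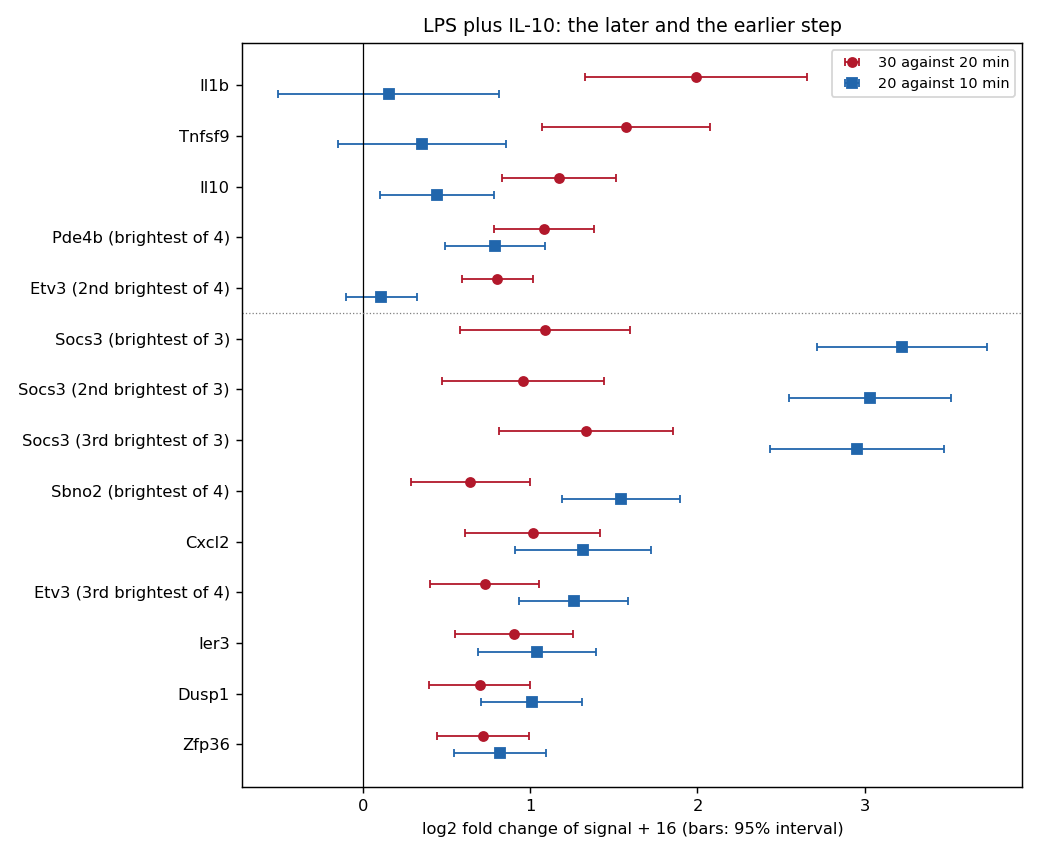
Log2 fold change with 95% interval of the later step (30 against 20 min) and the earlier step (20 against 10 min) under LPS plus IL-10 for the 14 probe sets called in either. The early risers have later steps of 0.64 to 1.33, all with intervals above 0, and the Socs3 probe sets have the largest earlier steps, 2.95 to 3.22.

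The same interval in macrophages given LPS alone was measured on other arrays of the same experiments. There, 4 probe sets rose, or 0.0148% of those tested: Cxcl1 (log2 fold change 1.59), Tnf (1.57), Tnfsf9 (1.48) and Pde4b (1.04). A single probe set, of Nlrp6, fell (-2.96, or 0.0037%). It read 2.6, 7.4 and 8.9 at 30 min of LPS alone, too dim to tell from background. At 20 min it read 97.0, 174.7 and 218.6, the last 2 on the arrays that stood apart. All these calls are named because they passed here, after their values were seen. Without the 2 LPS arrays that stood apart, which leaves 1 array of LPS alone at 20 min, none of these genes passed, and 4 other probe sets did, of Akr1c12, Ropn1l, Stimate and Zmynd15. With all arrays, Tnfsf9 and Pde4b passed under both treatments. Tnfsf9 read 1226, 1889 and 771.6 at 30 min and 555.4, 401.0 and 341.0 at 20 min of LPS alone, and Pde4b 1293, 1832 and 2039 at 30 min and 639.6, 947.2 and 891.9 at 20 min. Their steps with IL-10 differed from those without it by 0.09 (95% interval -0.62 to 0.80) and 0.04 (-0.38 to 0.46).

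For the other late risers the step under LPS alone did not pass. Il1b had a step of 1.19 (95% interval 0.53 to 1.85) and Il10 of 0.69 (0.35 to 1.03), both positive in every experiment. Il10 read 1313, 1138 and 1960.4 at 30 min of LPS alone, below all 3 of the 30 min arrays with IL-10. The called probe set of Etv3 read 1206, 1153 and 749.6 at 30 min and 1195, 1230 and 786.1 at 20 min of LPS alone. Its step without IL-10 was -0.05 (-0.26 to 0.16), against 0.80 with IL-10, a difference of 0.85 (0.55 to 1.15) that did not pass over all probe sets (limma adjusted p = 0.249, the smallest of this contrast). The Etv3 probe set called before 20 min had steps of 0.73 with IL-10 and 0.58 (0.25 to 0.90) with LPS alone, a difference of 0.15 (-0.31 to 0.61). Its 30 min signals were 2346, 2597 and 2049 with IL-10 and 913.1, 1268 and 577.0 without, which did not overlap. The brightest and the dimmest Etv3 probe sets, not called, had steps of 0.30 and -0.13 with IL-10 and 0.04 and 0.03 without. No probe set passed in the contrast of the steps with and without IL-10 (0% each way), and 1397 had an unadjusted p under 0.05 (2.58% positive and 2.59% negative).

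Among the early risers, Sbno2 and Socs3 can be set beside Zfp36, Ier3, Cxcl2 and Dusp1. Sbno2 had a later step of 0.64 with IL-10 and of -0.36 (95% interval -0.71 to -0.0047) with LPS alone, a difference of 1.00 (SE 0.24, limma adjusted p = 0.898), with signals at 30 min of 1994, 2480.0 and 1977 with IL-10 and 309.4, 440.9 and 350.5 without. On its brightest probe set Socs3 had later steps of 1.09 with IL-10 and 1.20 without, with 30 min signals of 10529.9, 11388 and 10701 with IL-10 and 1827, 3469 and 1292 without. Its probe set without the suffix for possible binding of other transcripts had steps of 1.33 with IL-10 and 0.62 without, a difference of 0.71 (-0.02 to 1.44). For Zfp36 the steps were 0.72 and 0.72, for Ier3 0.90 and 0.88, for Cxcl2 1.01 and 0.78, and for Dusp1 0.70 and 0.40. For Zfp36, Ier3, Cxcl2 and Dusp1 the interval of the difference held 0, from -0.39 to 0.39, from -0.48 to 0.52, from -0.34 to 0.81 and from -0.13 to 0.72. Ier3 read 10550.3, 12684 and 12931 at 30 min with IL-10 and 7110, 10288 and 7984 without, which did not overlap. The 30 min signals with and without IL-10 overlapped for Zfp36, Cxcl2 and Dusp1.

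**Figure D4:**
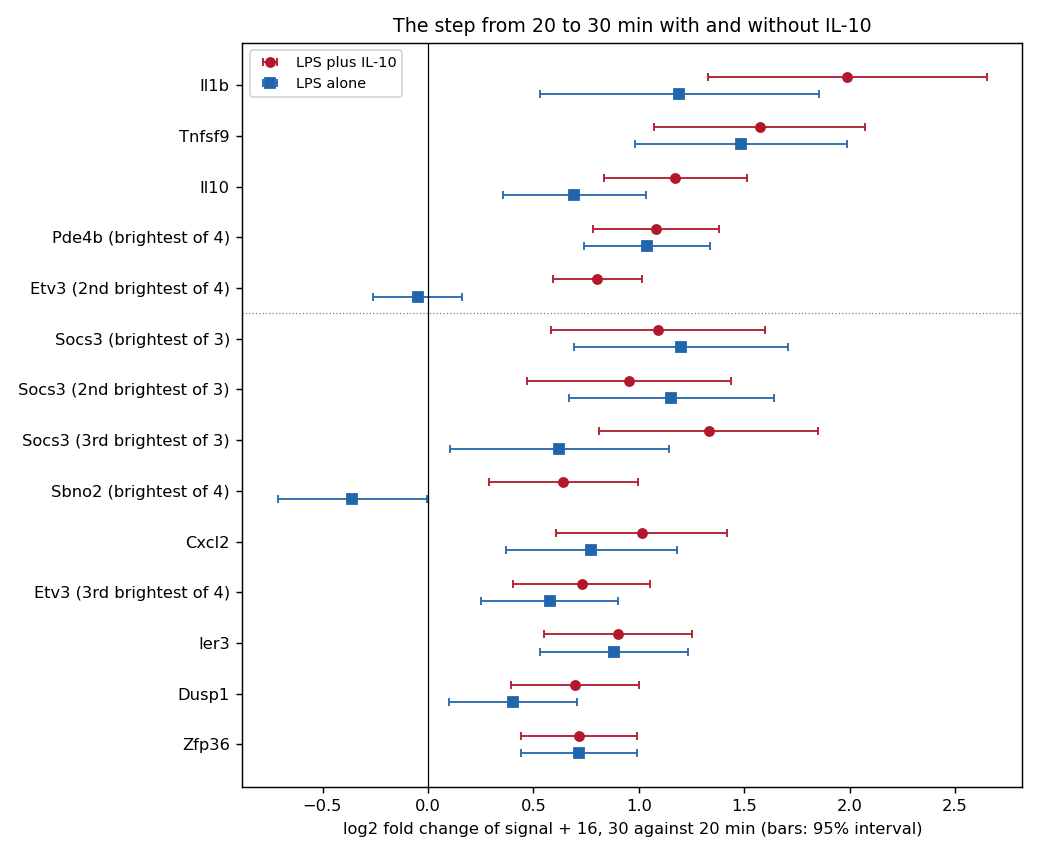
Log2 fold change, 30 against 20 min, under LPS plus IL-10 and under LPS alone, with 95% intervals. The steps of Pde4b and Tnfsf9 lie near each other under both treatments (1.08 and 1.04, 1.57 and 1.48). The Etv3 probe set called after 20 min has steps of 0.80 with IL-10 and -0.05 without. The Etv3 probe set called before 20 min has steps of 0.73 and 0.58.

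Beyond the calls, gene lists were read by counts and medians, with no set test. They were chosen with earlier results of these data known, and some hold called genes. Their counts and medians therefore describe the members only. Over all 12509 genes, read by their brightest probe set, 43% were higher at 30 min, 10.1% were higher in all 3 experiments, 16.8% were lower in all 3, and the median log2 fold change was -0.04. Of 17 measured genes of cytokines and chemokines, 15 were higher, 11 in all 3 experiments, and the median was 0.83. The called members of this list were Il1b and Tnfsf9. Cxcl1, a neutrophil chemokine, read 2181, 3708 and 1001 at 30 min, against 739.8, 1264 and 482.0 at 20 min, on its second-brightest probe set, a log2 fold change of 1.37 that missed the threshold (limma adjusted p = 0.0765). Tnf, the gene of the cytokine TNF, read 7449, 4755 and 811.2, against 3705, 2256 and 516.5 (0.90, limma adjusted p = 0.413). The macrophage chemokine genes Ccl3 and Ccl4 had values of 0.83 and 0.88, also not past the test. The 2 lower members, named after their values were seen, were Ccl5 (-0.41) and Ifnb1 (-0.08).

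Of 24 measured genes on the list induced by IL-10 and STAT3, 16 were higher, 15 of them in all 3 experiments, with a median of 0.31. Il10 passed by its brightest probe set and Etv3 by another one. Irf1, a transcription factor of interferon responses, read 4697, 3006 and 3984 at 30 min and 2470.0, 2151 and 1577 at 20 min, without overlap, and missed the threshold (log2 fold change 0.91, SE 0.15, limma adjusted p = 0.0626). Gadd45g, a stress-response gene, read 2372, 2242 and 2155 at 30 min and 1805, 932.9 and 954.8 at 20 min (0.93, limma adjusted p = 0.344). Nfil3, a repressor that STAT3 induces, read 842.6, 600.5 and 528.1 against 561.1, 393.9 and 155.3 (0.94, limma adjusted p = 0.413). With LPS alone the 3 genes had steps of 0.23, -0.04 and -0.08. The metallothionein gene Mt1 (0.16) and Stat3 itself (0.23) did not pass, and Cish, another SOCS-family inhibitor, had a value of -0.50.

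Of 19 measured immediate early transcription factor genes, 14 were higher, 6 in all 3 experiments, with a median of 0.30. No member passed. Egr1 read 2202, 1162 and 637.4 at 30 min and 764.8, 282.0 and 773.1 at 20 min, higher in experiments 1 and 2 and lower in experiment 3 (1.07, limma adjusted p = 0.686). Fos read 14334, 16004 and 13162 at 30 min and 9805, 13192 and 13678 at 20 min (0.26, limma adjusted p = 0.762). Junb had a value of 0.64.

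Of 19 other immediate early effector genes, 15 were higher, 10 in all 3 experiments, with a median of 0.32, and the called member was Pde4b. Ptgs2, the inducible cyclooxygenase gene, read 750.3, 1338 and 192.2 at 30 min, against 343.5, 326.7 and 91.7 at 20 min (1.34, limma adjusted p = 0.386). All 3 experiments were higher at 30 min, and the groups overlapped since experiment 3 was dim at both times. Btg2, an antiproliferative gene (1.06), Ier2 (0.71) and Csrnp1 (0.96) did not pass.

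The lists of inhibitors of the LPS pathway had medians between 0.11 and 0.14. Of 16 genes of MAP kinase phosphatases and mRNA decay factors, 12 were higher and 8 in all 3 experiments, with a median of 0.14 and no call. Of 16 NF-kB feedback genes, 12 were higher but 4 in all 3 experiments, with a median of 0.11 and no call. Tnfaip3, which encodes the NF-kB inhibitor A20, read 5174, 3822 and 1594 at 30 min and 3154, 2663 and 1093 at 20 min (0.59, limma adjusted p = 0.218). Nfkbia, the gene of the inhibitor I kappa B alpha, read 27699, 26259 and 21386 at 30 min, against 23873, 18858 and 22601 at 20 min (0.20, limma adjusted p = 0.815). Nfkbiz, which encodes a nuclear member of the I kappa B family, had a value of 0.55.

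The receptor, interferon and repressor lists lay near the median of all genes. Of 20 SOCS, JAK, STAT and IL-10 receptor genes 8 were higher (median -0.01), of 18 interferon-stimulated genes 8 (median -0.04), of 17 Toll-like receptor signalling genes 7 (median -0.04) and of 19 Kruppel-like factors and other repressors 9 (median -0.01). No member passed in any of these lists by the brightest probe set.

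Housekeeping genes and macrophage markers had medians above that of all genes at 30 min. Of 12 housekeeping genes 10 were higher (median 0.14) and of 15 macrophage markers 12 (median 0.12), with no call. After quantile normalisation, an alternative added after seeing the data, both medians were 0.02, with 7 of 12 and 10 of 15 genes higher, while that of cytokines and chemokines was 0.82. The summed signal of the macrophage markers was 256100 to 288000 at 30 min and 241200 to 251500 at 20 min, which did not overlap. At 10 min of LPS plus IL-10 it was 248500 to 330900, which overlapped both. With LPS alone it was 218500 to 287400 at 30 min and 269100 to 377000 at 20 min. The part of these markers in the rises above was not tested. All 15 macrophage markers read above the median signal of every array, among them Csf1r (at least 19735.9 on every array), Adgre1 (at least 9900.1) and Cd68 (at least 18327.8). Some but not all granulocyte and stromal markers did so too. S100a8 read at least 2756.9 and Acta2 at least 2439.8, while Elane read down to 19.4 and Dcn to 27.9. Granulocyte marker sums overlapped between the times, at 6714 to 14790 at 30 min and 8106 to 12490 at 20 min, and so did dendritic cell sums, at 385.1 to 667 and 411.3 to 693.5.

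**Figure D5:**
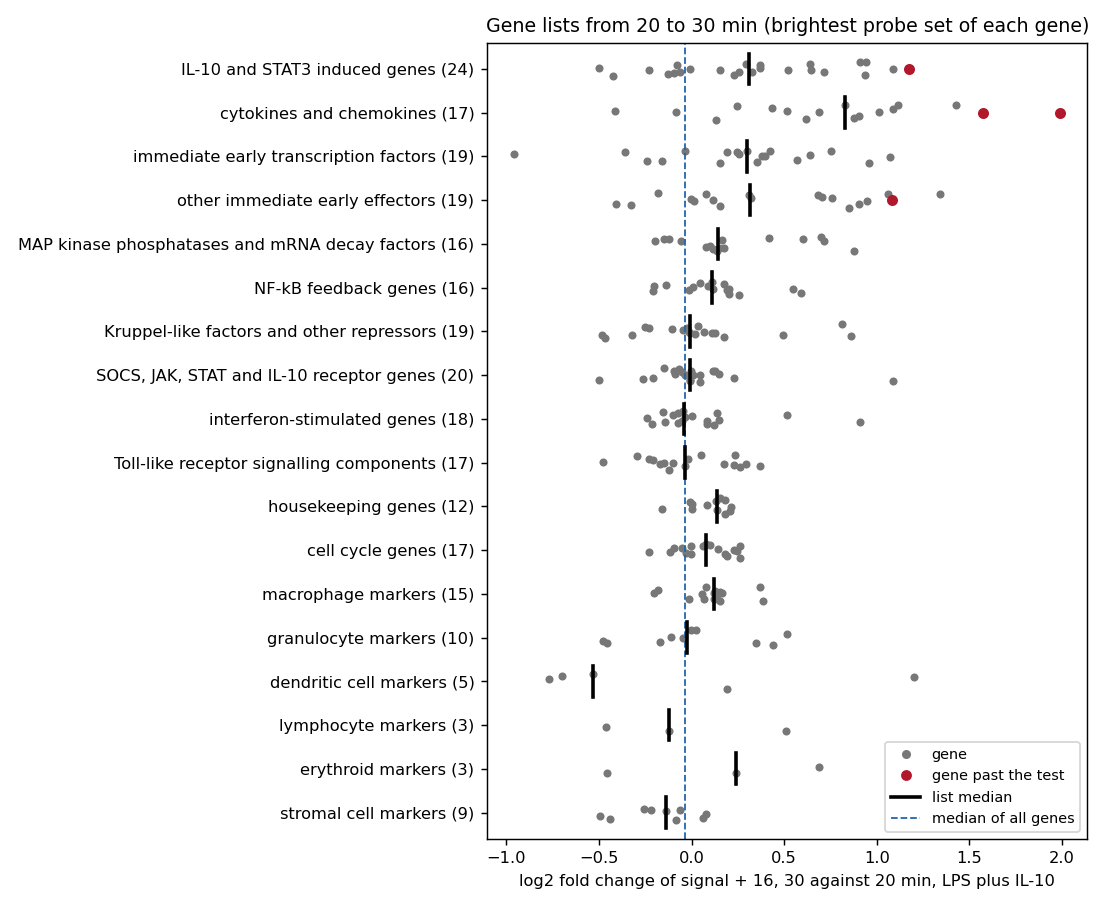
Log2 fold change, 30 against 20 min of LPS plus IL-10, of the measured genes of each list by their brightest probe set, with red points for genes past the test and a bar at the list's median. The median of cytokines and chemokines, 0.83, is the highest, and the interferon-stimulated and Toll-like receptor lists, both at -0.04, lie at the median of all genes.

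No probe set fell in the interval, and the smallest p-values on the lower side belonged to mostly dim probe sets. On the dimmer of its 2 probe sets, Tbc1d22a read 171.3, 263.8 and 175.0 at 30 min, against 393.4, 548.9 and 404.0 at 20 min, without overlap, and missed the threshold (log2 fold change -1.09, SE 0.19, limma adjusted p = 0.0665). Lasp1, a cytoskeletal adaptor gene, had a value of -1.11 and the transcription regulator gene Lmo1 of -2.25, both at a limma adjusted p of 0.0797. The brightest probe sets of Tbc1d22a and Lasp1 gave -0.09 and -0.09. Lmo1 read 11.5, 5.4 and 7.0 at 30 min and 67.4, 100.7 and 133.8 at 20 min, while the median signal of these arrays was 75.8 to 97. Groups that did not overlap were more common on the lower side, with 953 probe sets (3.52%) below at 30 min and 487 (1.8%) above.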

How the data were processed

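Per the labels' protocols, Trizol was used to extract total RNA, and Affymetrix's standard method gave biotinylated cRNA. The authors deposited linear intensities in a table with a column for each array. The submitters' processing notes name GCOS 1.4, and which signal algorithm it ran with is not given in the sources used. Each array had been scaled to a common mean, which hides any change in total RNA per cell. No detection calls were used, so a dim signal cannot be told from background.

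Of 45101 probe sets, 34958 carried 1 symbol in the platform annotation, 932 several and 9211 none, and the last 2 kinds were left unnamed. Tested were the 27062 probe sets at or above an array's median signal on at least 3 of 18 arrays, after 60 control probe sets were left out. Signals were turned into log2(signal + 16), which understates fold changes of dim probe sets. limma 3.58.1 in R 4.3.3 was fitted to all 18 arrays with 1 coefficient for each of 6 groups, the experiment as a block and an intensity trend (10 residual degrees of freedom). Each test was two-sided and used Benjamini-Hochberg adjustment within each of 5 comparisons at a threshold of 0.05. The code was tested on simulated data.

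The labels make each replicate number a complete experiment, so the numbers pair the arrays. Correlations of the deviations from group means were 0.201 to 0.643 in 45 pairs of arrays with the same number and -0.471 to 0.0652 in 90 pairs with different numbers. Deviations cancel out within each group, so positive correlations for the same number force mostly negative ones for different numbers. The lower range is therefore not separate support for the pairing.

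Genes named were drawn from those called in either interval with the same sign in all 3 experiments, the genes of smallest p up to 10 each way, up to 4 per list by size of change, and a fixed panel. Not every gene so drawn is described. Left out on the lower side were Zeb1, Gm9946, Mir670hg, Zc3h3, Gng3 and Fam53b. Where no probe set of a gene passed, the brightest is given, except for genes named for a small p (Cxcl1, Tbc1d22a, Lasp1 and Csnk1a1), which are given by the probe set with that p. The members, lists and tests were chosen with earlier results of these data known. Of 293 genes in 18 lists 247 were measured. Alternatives were quantile normalisation, pseudocounts of 1 and 64, other filters, no replicate block, only the arrays compared, no trend, each experiment left out, outlying arrays left out, and for lists the mean over a gene's probe sets. Promoters are RefSeq sequences.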

Additional observations from a re-analysis of the deposited data

Results flagged for a closer look

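Of 59 named probe sets compared between treatments, 3 moved one way in every experiment with IL-10 and the other way in every experiment with LPS alone, between 20 and 30 min. That is 5.08%, against 2.04% (551) of all 27062 probe sets, and since some named probe sets were picked for a small p in this interval nothing is read from the difference. For each the limma adjusted p of the difference, over all probe sets, was 0.898. Sbno2 was higher by 0.70, 1.04 and 0.19 in experiments 1, 2 and 3 with LPS plus IL-10 and changed by -0.61, -0.16 and -0.31 with LPS alone, a difference of 1.0 (SE 0.24) on the log2 scale. This was its brightest probe set. With LPS alone its second- and third-brightest changed by 0.02 and 0.24, with experiments on both sides of 0. The dimmest changed by -0.66 with LPS alone and -0.22 with LPS plus IL-10. The difference was -2.75 (SE 0.58) for Lmo1, with -2.25 in LPS plus IL-10 and 0.50 in LPS alone. It was -2.36 (SE 0.54) for Csnk1a1, the gene of casein kinase 1 alpha, with -1.93 in LPS plus IL-10 and 0.43 in LPS alone. The Csnk1a1 probe set read 19.8, 29.5 and 8.6 at 30 min and 133.0, 126.1 and 89.3 at 20 min of LPS plus IL-10. Both Lmo1 and Csnk1a1 rest on signals at 30 min too dim to tell from background, and the brightest of 5 Csnk1a1 probe sets gave -0.07.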

How the results depend on the processing

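The limits below are those of 3 arrays per group, dim probe sets without detection calls, and a spread estimate shared by 18 arrays. Of the single-gene values recomputed, 710 kept their direction and side of the threshold, 29 lost and 12 gained the threshold, and none changed direction. Most of the 710 belonged to probe sets that had not passed and stayed so, and all 29 losses were among the 5 called ones. Of 13 alternative settings, Etv3 passed in 9, Il10 and Pde4b in 8 each, Tnfsf9 in 6 and Il1b in 5. The count of 5 probe sets up from 20 to 30 min of LPS plus IL-10 became 0 with no replicate block, 1 with no intensity trend (Etv3), 3 without the 2 LPS arrays that stood apart (Etv3, Il10 and Pde4b) and 0 to 11 with 1 experiment left out. The count down, 0, became 1 with no trend (Lmo1) and 1 without those LPS arrays (Tbc1d22a). On only the arrays compared, 7 were called, 1 of the 5 (Tnfsf9) and probe sets of Cxcl1, Cxcl2, Ier3 and Socs3, and 4 of the 9 early risers then passed in both intervals. The 9 up from 10 to 20 min became 3 with no replicate block, 5 with no trend and 4 to 9 with 1 experiment left out. Without experiment 3 the 9 calls held 6 of the main 9, with Cxcl2, Ier3 and Zfp36 lost and Klf6, Rps10 and Selenow gained. Of the early risers, Socs3 alone was called from 10 to 20 min under every setting. Leaving out the 20 min array of LPS plus IL-10 of experiment 3, chosen after seeing the data, gave 5 there and 5 in the later interval. Those later calls held 4 of the main 5, with Tnfsf9 lost and Tm2d2 gained. The count down from 10 to 20 min, 0, became 1 without that array (Tm2d2) and 0 to 1 with 1 experiment left out. The change of step down, 0, became 2 on only the arrays compared. Those LPS arrays left out gave 11 up from 10 to 20 min, with Pde4b and Septin7 gained. With LPS alone the 4 up became 2 with quantile normalisation, 0 with no replicate block, 2 on only the arrays compared, 0 with no trend and 0 to 8 with 1 experiment left out, and the 1 down became 2 with no filter and 0 with the stricter filter, no replicate block, only the arrays compared, 1 experiment left out or the 2 LPS arrays left out. The contrast between treatments stayed at 0 under every alternative run. The cause of these moves was not tested. The median of the Kruppel-like list was 0.07 and of the interferon-stimulated list 0.01 when all probe sets of a gene were averaged, against -0.01 and -0.04 by the brightest.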

Other observations

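Markers of cells other than macrophages were read on the same arrays. Of 5 dendritic cell markers 2 were higher at 30 min than at 20 min of LPS plus IL-10 and the median was -0.53, and among them Batf3, a transcription factor of dendritic cells, read 180.1, 150.5 and 131.3 at 30 min and 55.3, 92.4 and 35 at 20 min, without overlap and not past the test (log2 fold change 1.20, limma adjusted p = 0.58). Its 10 min arrays, at 192.5, 181.8 and 131.2, overlapped those at 30 min. Of 9 stromal markers 2 were higher (median -0.14), and the collagen gene Col1a1 read 528.5, 817.1 and 417.2 at 30 min and 612.2, 1391 and 538.3 at 20 min (-0.44, limma adjusted p = 0.652). The stromal sums, 5942 to 9040 at 30 min and 5143 to 10010 at 20 min, overlapped. Lymphocyte sums of 270.3 to 326.7 at 30 min and 297.5 to 401.7 at 20 min, and erythroid sums of 159.9 to 245 and 121.7 to 260.9, rested on 3 measured genes each. Of 17 cell cycle genes 10 were higher at 30 min, with a median of 0.08.

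Tnfsf14, a cytokine gene of the TNF family, read 392.2, 174.9 and 82.2 at 30 min and 150.6, 54.6 and 48.1 at 20 min of LPS plus IL-10, after 140.3, 5.8 and 4.9 at 10 min. Every experiment was higher at each later time, and neither step passed (1.11 for the later and 1.14 for the earlier on the log2 scale). The 10 min signals of experiments 2 and 3 were too dim to tell from background, and in experiment 1 the earlier step was 0.09. With LPS alone the step from 20 to 30 min was -0.13, and experiments 2 and 3 read 15.4 and 11.1 at 30 min, also that dim. Id1, an inhibitor of helix-loop-helix transcription factors, read 1813, 1470 and 617.4 at 30 min and 789.7, 1004 and 334.6 at 20 min (0.86, limma adjusted p = 0.503). Traf1, a signalling adaptor gene, had a value of 0.95 and the phosphatase genes Dusp5 and Dusp2 of 0.88 and 0.60, none past the test.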
